A study of Mus musculus with 8 samples.

Results

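LXR targets and cholesterol efflux were followed through 9 genes of 21968 named genes in the files, taken by symbol: Abca1, Abcg1, Apoe, Apoc1, Mylip, Lpcat3, Srebf1, Pltp and Nr1h2. All 9 were among the 14404 genes that passed the filter on low reads. The liver X receptors (LXRs) are nuclear receptors for oxysterols, the oxidised forms of cholesterol. They bind DNA as partners of the retinoid X receptors (RXRs) and switch on genes that move cholesterol out of a cell, hand it to lipoproteins, limit its uptake and couple it to fatty acid synthesis. In liver this response is known both from Kupffer cells, the resident macrophages that clear dying cells, and from hepatocytes, which secrete lipoproteins and make bile acids.

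RNA was sequenced in bulk from 4 cell groups of injured mouse liver, with 2 libraries per group and the cells of 2 mice pooled in each library. Of the F4/80high cells, those with β-galactosidase activity formed the b-gal+ group and those without it the b-gal- group; the others were EpCAM-positive cells, cholangiocytes in the series text, and hepatocytes. All mice were Lgr5-LacZ transgenic on a mixed C57BL/6 and CBA background, and were given 1 µl CCl4 per g body weight in rapeseed oil by a single intraperitoneal injection. Livers were collected 6 days later. Ages were 10 to 12 weeks by the labels, but 7 to 12 weeks by the series text. Transgene and toxin are thus shared by all 4 groups, and uninjured liver was not analysed here. Hepatocytes were pelleted at low speed. The other cells were incubated with FDG, a fluorogenic substrate of β-galactosidase, and with antibodies to F4/80, a macrophage antigen, or to EpCAM, an epithelial antigen. The series title ascribes the β-galactosidase activity to an endogenous enzyme in TREM2-expressing Kupffer cells.

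Libraries held 16948568 to 24549242 reads. The b-gal+ libraries matched a macrophage label, with a summed level of 11 Kupffer cell and macrophage markers of 31060 and 32576 CPM (reads per 1000000, scaled by TMM). In b-gal- libraries this sum was 5104 and 2564 CPM, while 10 markers of sinusoidal endothelium summed to 20553 and 24289 CPM, against 4029 and 3007 CPM in b-gal+ libraries. Among the defining markers, the F4/80 gene Adgre1 stood at 1546 ± 262 CPM for b-gal+ and 222 ± 125 CPM for b-gal- libraries, and the endothelial Kdr at 301 ± 89.3 CPM for b-gal+ and 3251 ± 242 CPM for b-gal- libraries (SD, n = 2 each). The b-gal- group is therefore named by its gate alone. EpCAM-positive libraries held 250 and 1020 CPM of 10 cholangiocyte markers beside 8880 and 7490 CPM of the endothelial markers. Nothing in the labels says which libraries share mice, so p-values measure only the spread between these libraries.

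Promoter sequence was at hand for 7 of the 9 genes in RefSeq windows that run from 250 bases before to 50 bases after a start site. Among their 11 windows, 2 held the loose form of the LXR element searched for on both strands, in which GGTNA is followed by 5 bases of any kind and by a further GGTNA (a direct repeat with a spacer of 4 bases). They are shown because they carry the motif beside the gene, on the minus strand of Abca1 at chr4:53159846-53160145 and of Srebf1 at chr11:60210422-60210721 (GRCm38.p6, 5′ to 3′ along the gene, with the matched bases in capitals).
Abca1: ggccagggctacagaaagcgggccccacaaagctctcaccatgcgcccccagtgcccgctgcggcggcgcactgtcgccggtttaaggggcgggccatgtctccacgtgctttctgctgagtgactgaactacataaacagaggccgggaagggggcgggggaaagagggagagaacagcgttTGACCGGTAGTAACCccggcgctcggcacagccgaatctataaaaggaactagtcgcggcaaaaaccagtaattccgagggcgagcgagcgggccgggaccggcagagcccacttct
Srebf1: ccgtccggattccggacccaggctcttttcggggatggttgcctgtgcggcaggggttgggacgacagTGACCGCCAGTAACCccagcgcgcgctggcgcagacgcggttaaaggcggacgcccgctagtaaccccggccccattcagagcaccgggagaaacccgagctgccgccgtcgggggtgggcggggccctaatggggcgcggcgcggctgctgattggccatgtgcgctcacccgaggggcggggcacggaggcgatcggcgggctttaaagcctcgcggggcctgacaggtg
Read on the opposite strand, the matches were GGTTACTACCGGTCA at -67 to -53 from the Abca1 start site and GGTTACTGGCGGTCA at -182 to -168 from this Srebf1 start site, the most downstream of 3 in the table. Of all 32851 promoter windows, 236 (0.718%) held such a match. The single site AGGTCA, which can overlap the repeat, was found in 0 of the 11 windows and in 16.3% of all windows. A match says only that these letters stand there.

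Levels per length put Apoe first in b-gal+ cells, at 9967 ± 3189 CPM per kb of exon. Apoc1 followed at 524 ± 6.26, Pltp at 296 ± 19.2, Abca1 at 77.6 ± 5.88, Mylip at 59.9 ± 0.261 and Abcg1 at 44.6 ± 3.64 CPM per kb, and Nr1h2, Srebf1 and Lpcat3 lay at 36.5 ± 4.28, 20.7 ± 2.45 and 17.5 ± 4.84 CPM per kb. In hepatocytes Apoe also stood first, at 17103 ± 5088 CPM per kb, but Srebf1 came next after Apoc1 at 202 ± 62.5 and Abcg1 last at 1.41 ± 0.0998 CPM per kb (SD, n = 2 throughout). Together the 9 genes took 2.05% and 3.12% of the reads of the b-gal+ libraries, 0.750% and 0.528% of the b-gal- pair, 0.434% and 0.477% of the EpCAM-positive pair and 1.96% and 2.70% of the hepatocyte pair. Without Apoe, the shares were 0.293% and 0.300%, 0.138% and 0.126%, 0.0965% and 0.104%, and 0.367% and 0.368% in the same order.

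**Figure D1:**
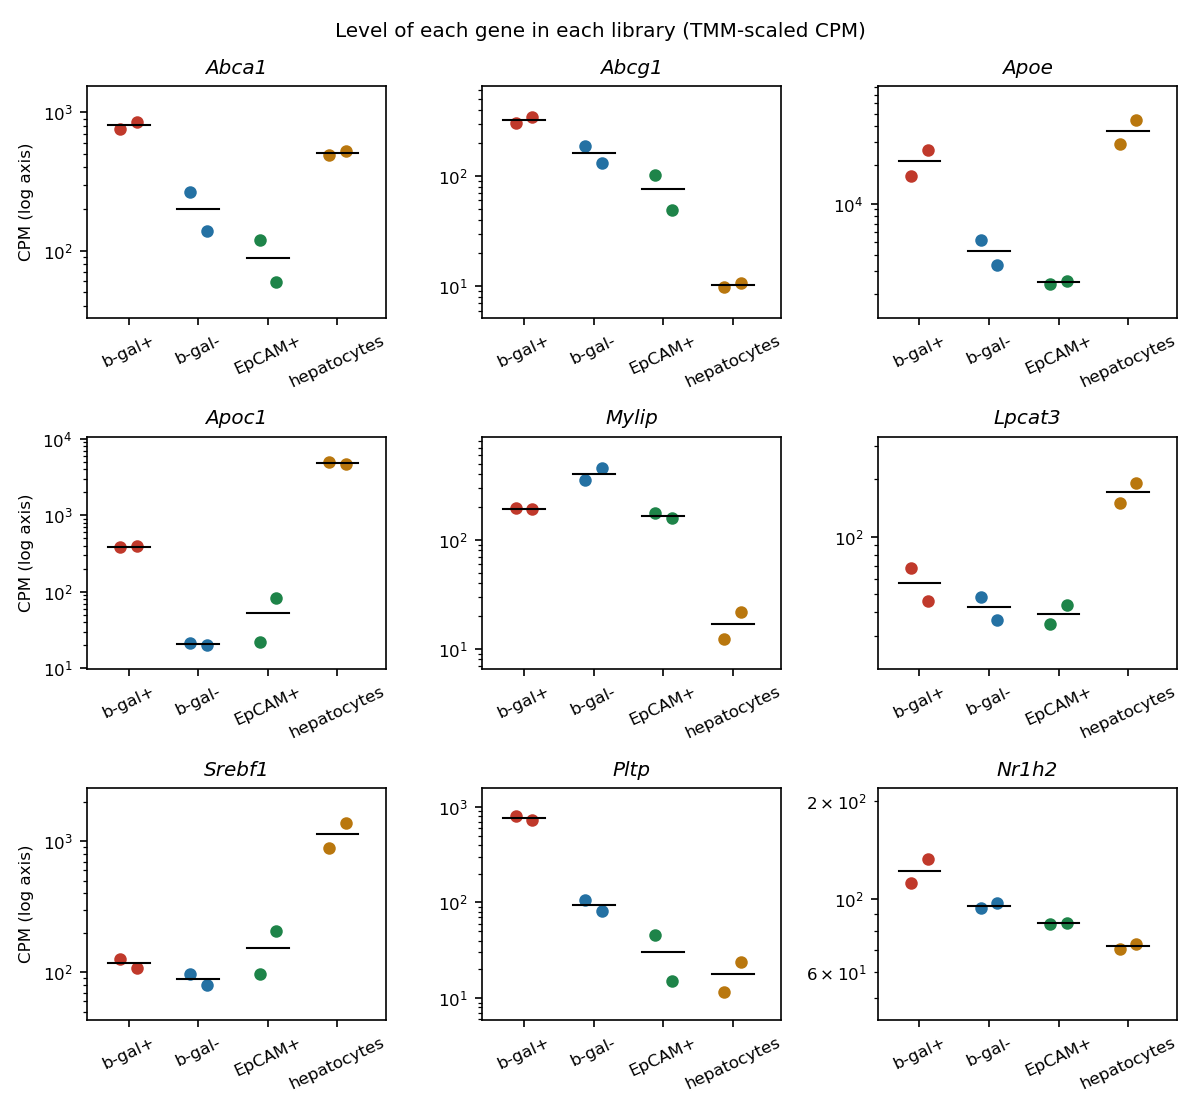
Level of each of the 9 genes in each of the 8 libraries, in TMM-scaled CPM on a log axis; points are libraries (replicate 1 left, replicate 2 right) and lines are group means. Abca1, Abcg1, Pltp and Nr1h2 were highest in b-gal+ cells, Mylip in b-gal- cells, and Apoe, Apoc1, Lpcat3 and Srebf1 in hepatocytes.

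Which parts of the LXR response set b-gal+ cells apart from b-gal- cells was the first comparison. Pltp, Apoc1 and Abca1 were higher in b-gal+ cells, by log2 differences of 3.02, 4.18 and 2.06, and Mylip was lower, at -1.05. Thus 4 of the 9 genes were called (limma, Benjamini-Hochberg adjusted p under 0.05), 3 higher and 1 lower. Of all genes tested 23.3% were called, 10.4% higher and 13% lower. The median difference of the 9 genes was 1.04, beside -0.02 over all genes tested. Apoe, Abcg1, Nr1h2, Lpcat3 and Srebf1 were not called, at differences of 2.32, 1.04, 0.35, 0.41 and 0.40. The macrophage marker sums given above differed between these groups in the same direction, and the endothelial ones in the opposite direction. Their part in the differences was not tested, and in bulk RNA fewer cells of a type cannot be told apart from less RNA per cell. As a mean, the macrophage marker sum of b-gal- cells was 12.1% of that in b-gal+ cells, and on the same scale Pltp stood at 12.4%, Apoc1 at 5.39%, Apoe at 20.0%, Abca1 at 25.1%, Abcg1 at 49.3% and Mylip at 209%. The single macrophage markers differed among themselves. Their log2 differences ran from 2.00 for Lyz2, which was not called, to 4.23 for Clec4f, a range that holds those of Pltp, Apoc1, Apoe and Abca1.

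Against EpCAM-positive cells, 5 of the 9 genes were higher in b-gal+ cells and 0 lower by limma; of all genes 32.5% were called, 14.7% higher and 17.9% lower. These were Pltp, Abca1, Apoc1, Abcg1 and Nr1h2. The median of the 9 genes was 2.18, beside -0.03 over all genes. Against hepatocytes 7 of the 9 genes were called, beside 59.2% of all genes, 29.5% higher and 29.6% lower. Pltp, Abcg1, Mylip and Nr1h2 were higher in b-gal+ cells, and Apoc1, Srebf1 and Lpcat3 were lower. Here the median was 0.66, beside 0.10 over all genes; without TMM, on the deposited values, that of all genes shifted by 0.77.

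Between the other groups, b-gal- and EpCAM-positive cells differed in 1 gene, Mylip, where 12.2% of all genes were called, 5.63% higher and 6.57% lower, and the median was 0.77, beside 0.07 over all genes. It no longer passed without b-gal+ replicate 1 or 2 (adjusted p = 0.0633 and 0.0656), without b-gal- replicate 1 or 2 (0.0948 and 0.183) and without EpCAM-positive replicate 2 (0.0856). Without EpCAM-positive replicate 1, limma called 6 of the 9 genes, adding Abca1, Abcg1, Apoc1, Srebf1 and Pltp. The b-gal- cells differed from hepatocytes in 8 genes, 4 higher and 4 lower, where 63.2% of all genes were called, 33.5% higher and 29.7% lower. EpCAM-positive cells differed from hepatocytes in 7, 2 higher and 5 lower, where 62.5% were called, 33.5% higher and 29.1% lower. The medians were -1.41 beside 0.17 and -2.11 beside 0.15. Each group enters 3 of the 6 comparisons, so that these counts share libraries.

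**Figure D2:**
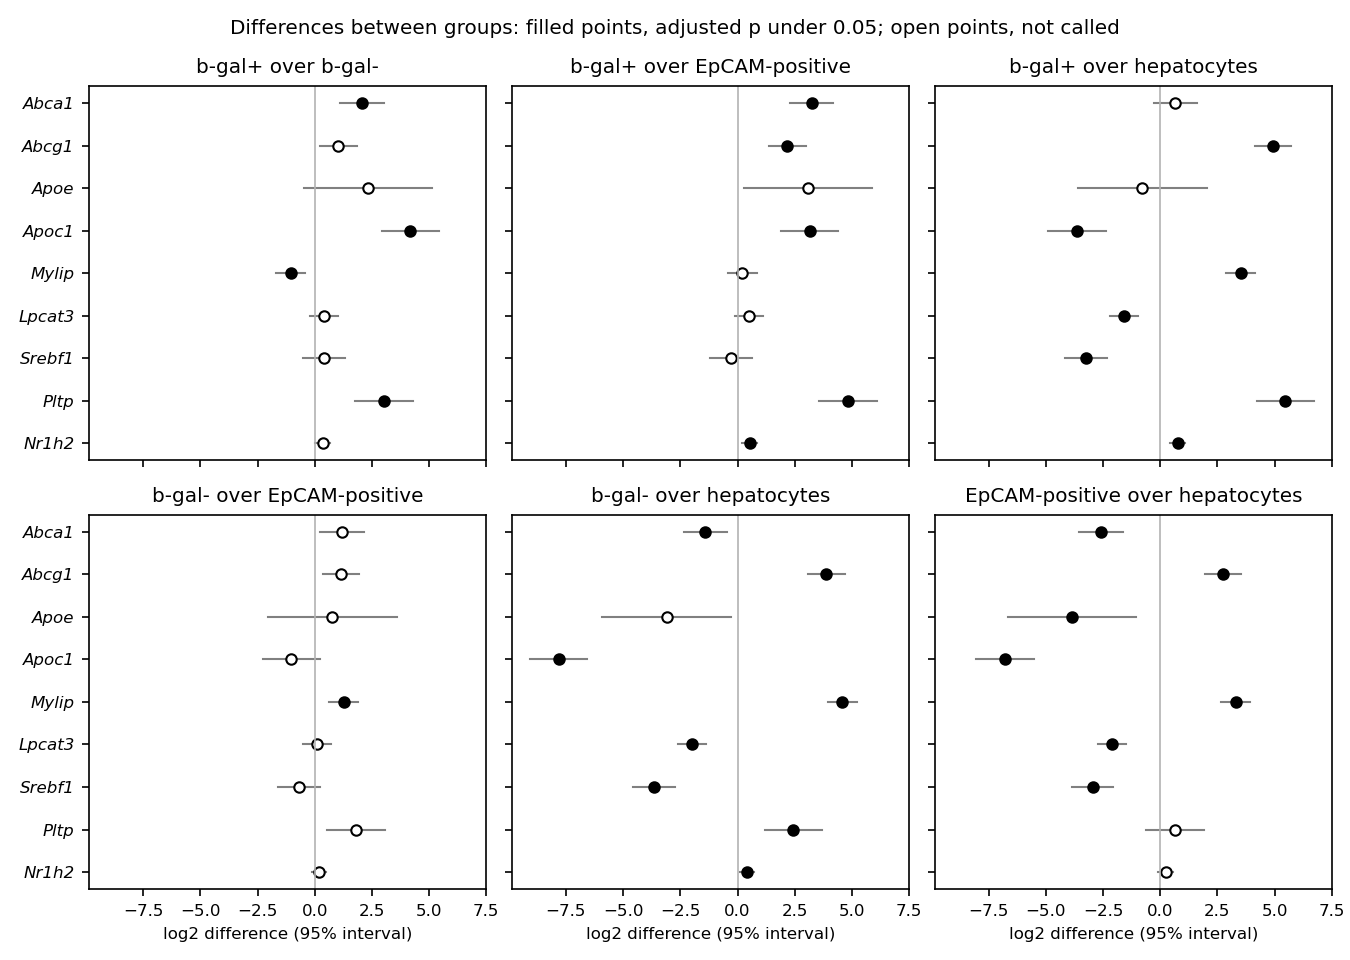
Fitted log2 differences of the 9 genes with 95% intervals in the 6 comparisons, each written as first group over second; filled points had an adjusted p under 0.05 (limma). In b-gal+ over b-gal- cells Mylip alone lay below 0, at -1.05, and in the comparisons with hepatocytes the genes lay on both sides of 0.

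Nr1h2, which encodes LXRβ, the broadly expressed LXR, varied least. It had 112 and 133 CPM in the b-gal+ pair, 94.1 and 97.1 CPM in the b-gal- pair, 84.2 and 84.8 CPM in the EpCAM-positive pair and 70.5 and 73.1 CPM in the hepatocyte pair. On this scale no 2 groups overlapped, and the order ran from b-gal+ to hepatocytes. Before TMM the EpCAM-positive pair, at 119.4 and 125.9 CPM, overlapped the b-gal+ pair, at 119.5 and 142.8 CPM. The EpCAM-positive pair then lay above the b-gal- pair, at 111 and 117.1 CPM, and hepatocytes stood at 38.86 and 38.55 CPM. The difference of b-gal+ cells from hepatocytes was 0.76 ± 0.13 on the log2 scale (SE; limma, adjusted p = 0.00240) and was called with any one library left out. Those of b-gal+ over EpCAM-positive cells, at 0.53 (adjusted p = 0.0244), and of b-gal- cells over hepatocytes, at 0.41 (adjusted p = 0.0314), were smaller. The first of these did not pass without b-gal+ replicate 2, either b-gal- library or EpCAM-positive replicate 2 (limma, adjusted p = 0.140, 0.0540, 0.0543 and 0.0564), nor without TMM (0.20, adjusted p = 0.261), with these 2 groups fitted alone (0.0973) or with no trend in the spread (0.0556). The other was lost without b-gal+ replicate 2, either b-gal- or either hepatocyte library (limma, adjusted p = 0.0687 to 0.148), with no trend (0.0689), with the size factors of DESeq2 (0.30, adjusted p = 0.0865) and by the DESeq2 test (0.31, adjusted p = 0.0818). Neighbours in the order of levels did not differ by limma (adjusted p = 0.111, 0.443 and 0.167).

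Its paralogue Nr1h3, which encodes LXRα, the form known from macrophages and hepatocytes, had another pattern. It stood at 460 and 457 CPM in the b-gal+ pair, 57.0 and 36.2 CPM in the b-gal- pair, 16.3 and 5.91 CPM in the EpCAM-positive pair and 223 and 181 CPM in the hepatocyte pair. The b-gal+ libraries were the highest, hepatocytes came next and the EpCAM-positive pair was lowest, with no overlap. The log2 difference of b-gal+ over b-gal- cells was 3.32 ± 0.44 (SE; limma, adjusted p = 0.00291). That of b-gal+ cells over hepatocytes was 1.19 and not called (limma, adjusted p = 0.0525). It was called in 9 of 20 alternatives, among them DESeq2 (1.17, adjusted p = 0.0304) and limma with these 2 groups fitted alone (0.00405). Without TMM it was called at 2.23 (limma, adjusted p = 0.00351), and it was also called without EpCAM-positive replicate 1 or 2. Within a library, Nr1h3 gave 4.10 and 3.45 reads for each read of Nr1h2 in the b-gal+ pair, 0.605 and 0.372 in the b-gal- pair, 0.194 and 0.0697 in the EpCAM-positive pair, and 3.17 and 2.47 in the hepatocyte pair. Per length, Nr1h3 was above Nr1h2 in b-gal+ cells (182 and 36.5 CPM per kb) and hepatocytes (80.3 and 21.4), and below it in b-gal- (18.5 and 28.5) and EpCAM-positive cells (4.42 and 25.2). With 2 libraries against 2, an exact permutation test of such a ratio cannot go below p = 0.333, and none was run. The Nr1h3 level in b-gal- cells was 10.2% of that in b-gal+ cells, beside the 12.1% of the macrophage marker sum. Its log2 difference of 3.32 lay within the range of the single macrophage markers, 2.00 for Lyz2 to 4.23 for Clec4f.

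**Figure D3:**
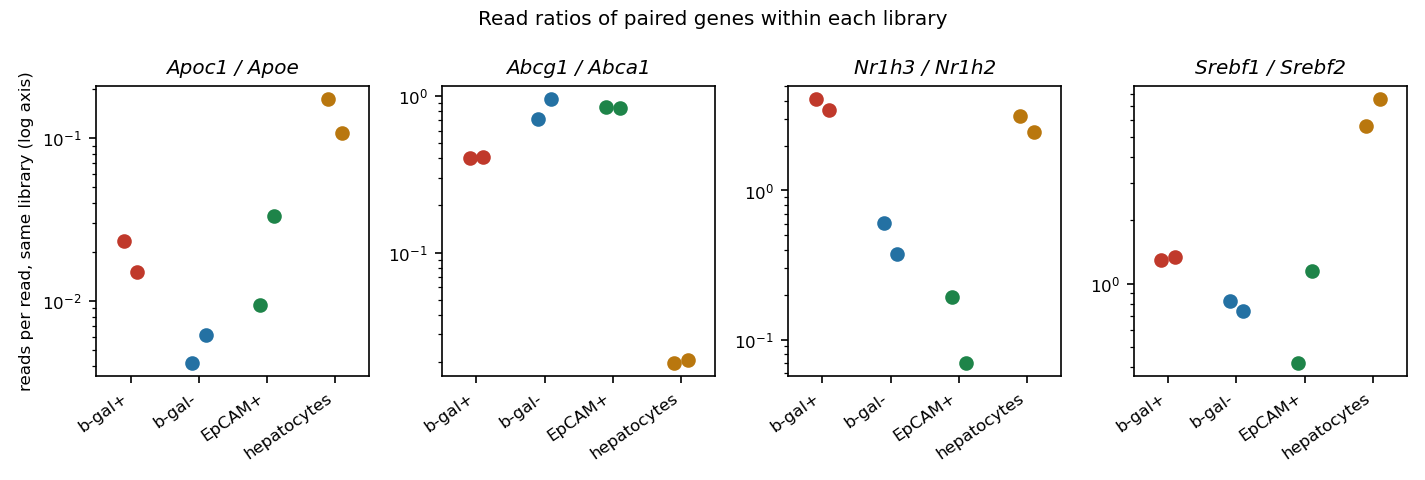
Reads of one gene per read of another within each library, on log axes, for 4 pairs of genes; points are libraries. Nr1h3 per Nr1h2 lay between 2.47 and 4.10 in b-gal+ cells and hepatocytes and between 0.0697 and 0.605 elsewhere, and Abcg1 per Abca1 was lowest in hepatocytes, at 0.0197 and 0.0205.

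Of the 11 genes listed as LXR and RXR receptors and coregulators, limma called 3 higher and 1 lower in b-gal+ than in b-gal- cells, where 23.3% of all genes were called. Beside Nr1h3, the higher ones were Rxra, the RXR form abundant in liver (841 ± 61.7 CPM for b-gal+ and 248 ± 8.67 CPM for b-gal- cells, log2 difference 1.76), and Tbl1xr1, a subunit of a corepressor complex (64.2 ± 5.20 and 36.6 ± 8.92 CPM, 0.82). The lower one was Rxrg, another RXR, at 0.476 CPM for b-gal+ and 3.92 CPM for b-gal- cells. The coactivators Ncoa1, Ncoa2 and Ncoa3 were not called in that comparison. The median over the list was 0.26. Against hepatocytes, where 59.2% of all genes were called, 4 were higher and 1 lower, among them the coactivator Ncoa3 at 369 ± 38.9 CPM in b-gal+ cells and 53.0 ± 7.91 CPM in hepatocytes.

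Abca1 encodes the transporter that passes cholesterol to lipid-poor apolipoprotein A-I, the first step of HDL formation. It had 761 and 847 CPM in the b-gal+ pair, 265 and 139 CPM in the b-gal- pair, 119 and 59.4 CPM in the EpCAM-positive pair and 494 and 525 CPM in the hepatocyte pair. On this scale no groups overlapped, and the b-gal+ libraries were highest. Before TMM the b-gal- pair, at 312.1 and 167.3 CPM, spanned the hepatocyte pair, at 272.6 and 276.9 CPM. The b-gal- pair then also overlapped the EpCAM-positive pair, at 168.8 and 88.18 CPM. On the log2 scale the difference of b-gal+ over b-gal- cells was 2.06 ± 0.40 (SE; limma, adjusted p = 0.0119), a 4.18-fold difference. It failed the threshold when either b-gal+ library (adjusted p = 0.0539 and 0.0706 for replicates 1 and 2) or b-gal- replicate 2 (0.0762) was left out. Over EpCAM-positive cells it was 9.49-fold (limma, adjusted p = 0.00243), called with any one library left out. Over hepatocytes the difference was 0.66 with an interval of -0.29 to 1.61 (adjusted p = 0.200). It became 1.70 (adjusted p = 0.00811) where the deposited values were used without TMM, and was called at 0.66 when these 2 groups were fitted alone (adjusted p = 0.0359). The b-gal- cells were lower than hepatocytes at -1.41 (limma, adjusted p = 0.0185); this ended when b-gal- replicate 2 (-0.94, adjusted p = 0.110) or either hepatocyte library (0.0681 and 0.0761) was left out, and without TMM (-0.20, adjusted p = 0.670). EpCAM-positive cells were lower than hepatocytes at -2.59 (adjusted p = 0.00135).

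Abcg1 encodes the transporter that adds cholesterol to mature HDL, and it is known from macrophages more than from hepatocytes. Its levels were 307 and 344 CPM in the b-gal+ pair, 189 and 132 CPM in the b-gal- pair, 102 and 49.7 CPM in the EpCAM-positive pair and 9.75 and 10.8 CPM in the hepatocyte pair. The groups did not overlap, and hepatocytes stood far below the rest. The b-gal+ cells exceeded hepatocytes 30.3-fold (log2 difference 4.92 ± 0.34, SE; limma, adjusted p = 3.35e-05) and EpCAM-positive cells 4.55-fold (2.18, adjusted p = 0.00450), both called with any one library left out. Against b-gal- cells the log2 difference was 1.04 with an interval of 0.24 to 1.84, and it was not called (limma, adjusted p = 0.0693). Leaving out EpCAM-positive replicate 1 or 2 made it a call at the same difference. So did leaving out both (limma, adjusted p = 0.0118) and fitting these 2 groups alone (0.0426). It was also called in limma with the size factors of DESeq2 (1.13, adjusted p = 0.0476) and by the DESeq2 test (1.12, adjusted p = 0.0188).

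The balance of the 2 transporters within a library was described and not tested. Abcg1 gave 0.403 and 0.406 reads per read of Abca1 in the b-gal+ pair, 0.714 and 0.954 in the b-gal- pair, 0.853 and 0.836 in the EpCAM-positive pair, and 0.0197 and 0.0205 in the hepatocyte pair. The b-gal- and EpCAM-positive ranges overlapped and no others did. Hepatocytes held 63.4% of the mean Abca1 level of b-gal+ cells, but 3.15% of that of Abcg1.

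Apoe, the ligand that carries remnant lipoproteins to their receptors and takes up cholesterol leaving macrophages, was per length the most abundant of the 9 genes in every group. It reached 16490 and 26130 CPM in the b-gal+ pair, 5183 and 3336 CPM in the b-gal- pair, 2378 and 2512 CPM in the EpCAM-positive pair and 28875 and 44259 CPM in the hepatocyte pair. On this scale each pair stood apart from the others, hepatocytes highest and EpCAM-positive cells lowest. Before TMM the b-gal+ pair, at 17550 and 28160 CPM, overlapped the hepatocyte pair, at 15930 and 23330 CPM. The b-gal+ cells had 4.99 times the level of b-gal- cells, a log2 difference of 2.32 with an interval of -0.49 to 5.13 that was not called (limma, adjusted p = 0.217). The fit gave Apoe an SD of 1.18 on the log2 scale, from the trend at its abundance, where its own 4 pairs had a pooled SD of 0.392. With no trend of the spread on abundance the same difference was called (adjusted p = 0.00654), and DESeq2 called it too (adjusted p = 2.86e-09), which the quasi-likelihood test of edgeR did not.

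Of the 5 other Apoe differences, 3 moved across the threshold with the settings. For b-gal+ over EpCAM-positive cells the log2 difference was 3.09 and not called (limma, adjusted p = 0.0901). In limma it was called without the trend (0.00325) and with a filter of 10 CPM in 2 libraries (0.0365). The quasi-likelihood test of edgeR (0.0415) and DESeq2 (3.29e-15) called it too. Between b-gal+ cells and hepatocytes the difference was -0.78 (adjusted p = 0.604), and 0.26 without TMM scaling (adjusted p = 0.873). Neither it nor the difference of b-gal- over EpCAM-positive cells, 0.77 (limma, adjusted p = 0.731), was called under any alternative run. Between EpCAM-positive cells and hepatocytes it was -3.87 and called (adjusted p = 0.0252). That call was lost without either b-gal-, either EpCAM-positive or either hepatocyte library (limma, adjusted p = 0.0627 to 0.119), without TMM (-2.49, adjusted p = 0.124), without the filter on low reads (0.190) and with these 2 groups fitted alone (0.196). Between b-gal- cells and hepatocytes it was -3.10 and not called (limma, adjusted p = 0.0545). Without b-gal+ replicate 2 it was -3.17 and passed the threshold. With all libraries it was called by edgeR's quasi-likelihood test (0.0218) and by DESeq2 (9.82e-17). Limma called it with no trend (0.000426), a filter of 10 CPM in 2 libraries (0.0169) or a replicate block (0.0345). It also did so with a pseudocount of 0.1 (0.0416) or the size factors of DESeq2 (0.0480).

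Apoc1 encodes a small apolipoprotein that rides on the same particles and restrains lipoprotein uptake and lipase action. It was listed at 386 and 393 CPM in the b-gal+ pair, 21.5 and 20.5 CPM in the b-gal- pair, 22.3 and 83.7 CPM in the EpCAM-positive pair and 5009 and 4744 CPM in the hepatocyte pair. Hepatocytes were highest and b-gal+ cells second, with both pairs tight, and b-gal- cells lay below the lower EpCAM-positive library. The b-gal+ cells had 18.1 times the level of b-gal- cells, the largest fold of the 9 genes in this comparison (log2 difference 4.18 ± 0.53, SE; limma, adjusted p = 0.00246). It was called with any one library left out, at adjusted p up to 0.0240. The b-gal+ cells were also higher than EpCAM-positive cells, 8.91-fold (limma, adjusted p = 0.00575; 0.0521 with these 2 groups fitted alone), and lower than hepatocytes, at a log2 difference of -3.64 (adjusted p = 0.000957).

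Hepatocyte RNA was measured beside it. The sum of 10 hepatocyte markers in b-gal+ cells, 349 and 730 CPM, was on average 0.219% of that in hepatocytes, while the Apoc1 level of b-gal+ cells was 7.99% and the Apoe level 58.3% of the hepatocyte level. In b-gal- cells the hepatocyte marker sum was 0.127% and Apoc1 0.431% of the hepatocyte level. EpCAM-positive replicates 1 and 2 held 726 and 5045 CPM of these markers beside 22.3 and 83.7 CPM of Apoc1, and on average 1.17% of the marker sum of hepatocytes beside 1.09% of their Apoc1. Most of that sum was Alb, at 2679 CPM in EpCAM-positive cells and 164676 CPM in hepatocytes. Ttr stood at 123 and 11403 CPM. Other markers were far lower against hepatocytes, such as Fgb (17.0 and 17202 CPM) and Hpx (16.5 and 15248 CPM). The part of hepatocyte RNA in the Apoc1 level was not tested. Within a library Apoc1 gave 0.0234 and 0.0150 reads per read of Apoe in the b-gal+ pair, 0.00415 and 0.00615 in the b-gal- pair, 0.00937 and 0.0333 in the EpCAM-positive pair, and 0.173 and 0.107 in the hepatocyte pair. The hepatocyte ratio was above all others, and the EpCAM-positive range spanned that of b-gal+ cells.

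Apoe and Apoc1 lie side by side on the minus strand of chromosome 7 (GENCODE M21, GRCm38), Apoe at chr7:19696109-19699188 and Apoc1 at chr7:19689481-19692660, 3448 bases apart. Of 8 neighbours tested in this stretch, 0 were higher in b-gal+ than in b-gal- cells by limma and 2 were lower, beside 23.3% of all genes called, and the median difference of the 8 was -0.09. The lower ones were Bcam, a laminin receptor (7.01 ± 0.733 CPM for b-gal+ and 66.5 ± 37.8 CPM for b-gal- cells), and Pvrl2, the adhesion protein nectin-2 (29.3 ± 12.9 and 105 ± 7.81 CPM). Tomm40, the mitochondrial import pore next to Apoe, had 25.5 ± 3.77 CPM for b-gal+ and 24.7 ± 3.92 CPM for b-gal- cells. Clptm1 stood at 133 ± 14.3 and 127 ± 4.89 CPM and Relb, an NF-κB subunit, at 40.0 ± 3.60 and 47.7 ± 6.70 CPM in these groups. The liver apolipoprotein Apoc4 had 1.62 ± 0.328 CPM in b-gal+ cells and 842 ± 90.7 CPM in hepatocytes. Apoc2, which activates lipoprotein lipase, had 0.445 ± 0.00340 and 11.9 ± 1.42 CPM there, and both share bases with an annotated read-through gene that the files do not list, so that their reads may be split. Cblc, an E3 ubiquitin ligase of epithelia, stood at 0.0425 ± 0.00318 CPM in b-gal+ cells and 41.0 ± 14.3 CPM in hepatocytes (SD, n = 2 throughout). Its b-gal+ value lay under the level of 3 reads, 0.122 to 0.177 CPM before TMM, so that its SD there is no measure of precision.

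Pltp, the phospholipid transfer protein that remodels HDL, was the one of the 9 with the widest gap between b-gal+ libraries and every other library. Its levels were 794 and 725 CPM in the b-gal+ pair, 107 and 81.0 CPM in the b-gal- pair, 45.3 and 15.2 CPM in the EpCAM-positive pair and 11.6 and 24.0 CPM in the hepatocyte pair. The b-gal+ libraries stood above all others, b-gal- came second, and EpCAM-positive cells and hepatocytes overlapped on this scale. The b-gal+ cells exceeded b-gal- cells 8.11-fold (log2 difference 3.02 ± 0.53, SE; limma, adjusted p = 0.00799), which did not pass when b-gal- replicate 2 was left out (2.82, adjusted p = 0.0596). They exceeded EpCAM-positive cells 28.4-fold and hepatocytes 44.1-fold (limma, adjusted p = 0.00191 and 0.000141), and both were called with any one library left out. The b-gal- cells were higher than hepatocytes at 2.44 (adjusted p = 0.00579), a call lost without hepatocyte replicate 1 (1.88, adjusted p = 0.0555). The difference of EpCAM-positive cells from hepatocytes was 0.64 and not called (limma, adjusted p = 0.324). It turned to -0.14 without EpCAM-positive replicate 1 and was 1.41 without EpCAM-positive replicate 2. Without TMM it was called at 1.97 (limma, adjusted p = 0.0128). Pltp shares bases with Ctsa on the opposite strand, which had 87917 reads over the 8 libraries, and the strand used in counting was not given in the sources used here, so that their reads cannot be told apart in the overlap. In EpCAM-positive cells Pltp stood at 3.98% of its b-gal+ level, beside 3.41% for the macrophage marker sum. The single macrophage markers ran from 11.7-fold for Cd68 to 319-fold for Clec4f in b-gal+ over EpCAM-positive cells. EpCAM-positive replicates 1 and 2 held 1786 and 383 CPM of these markers beside 45.3 and 15.2 CPM of Pltp; their part was not tested.

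**Figure D4:**
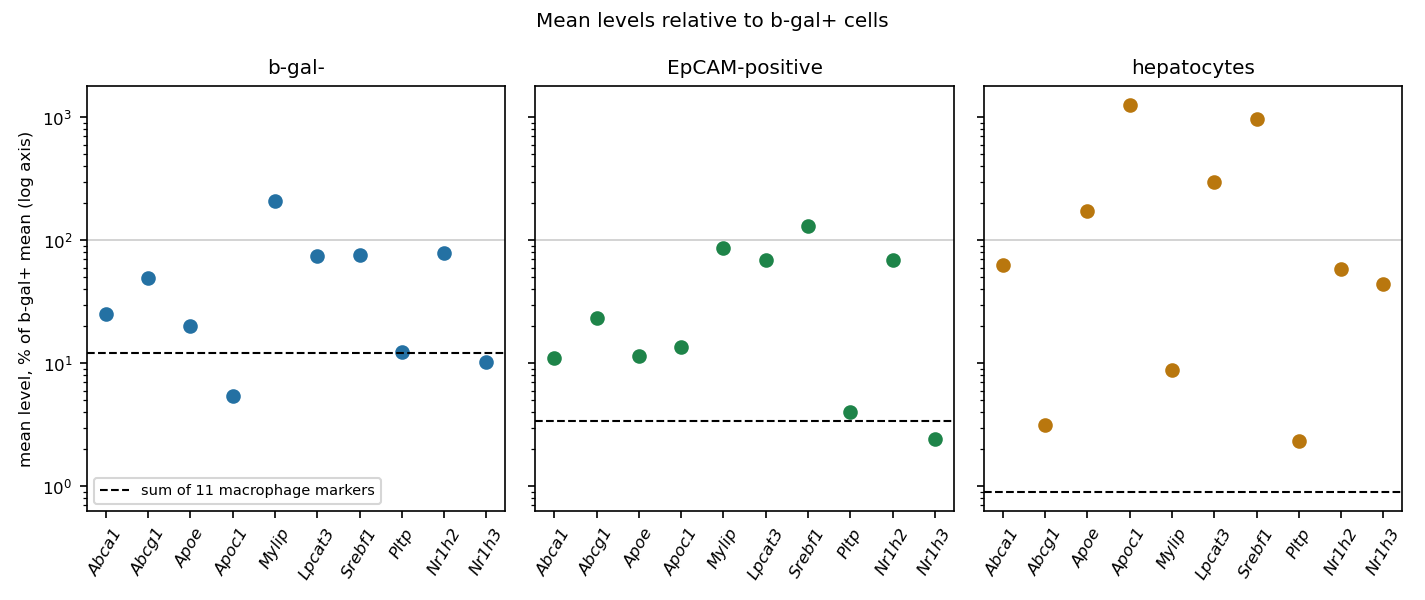
Mean level of the 9 genes and Nr1h3 in b-gal-, EpCAM-positive and hepatocyte libraries, in percent of the b-gal+ mean on a log axis; the dashed line is the summed level of 11 macrophage markers on the same scale. In b-gal- cells Pltp (12.4%) and Nr1h3 (10.2%) lay near the line at 12.1%, Apoc1 (5.39%) below it and the other genes above it. The line hides the spread of the single markers, whose log2 differences of b-gal+ over b-gal- cells ran from 2.00 (Lyz2) to 4.23 (Clec4f).

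Srebf1 encodes SREBP1, which drives fatty acid synthesis and whose SREBP1c form is an LXR target. It had 127 and 107 CPM in the b-gal+ pair, 97.1 and 79.4 CPM in the b-gal- pair, 97.6 and 207 CPM in the EpCAM-positive pair and 888 and 1386 CPM in the hepatocyte pair. Hepatocytes were far above the other 3 groups. On this scale the EpCAM-positive pair spanned the b-gal+ pair, with the b-gal- pair just below it. Before TMM the EpCAM-positive pair, at 138.4 and 307.2 CPM, lay above the b-gal+ pair, at 134.7 and 115.4 CPM. The b-gal+ cells were lower than hepatocytes at a log2 difference of -3.25 ± 0.38 (SE; limma, adjusted p = 0.000338). Likewise b-gal- cells, at -3.65, and EpCAM-positive cells, at -2.96, were lower than hepatocytes (limma, adjusted p = 0.000185 and 0.000576), and these calls were made with any one library left out. The difference of b-gal+ over b-gal- cells was 0.40 with an interval of -0.49 to 1.30 (limma, adjusted p = 0.508). That of b-gal+ over EpCAM-positive cells was -0.29 (adjusted p = 0.613), and 0.25 without EpCAM-positive replicate 2. Between b-gal- and EpCAM-positive cells it was -0.69 and not called (adjusted p = 0.278), but called at -1.23 without EpCAM-positive replicate 1 (0.0427). Srebf1 overlaps Rai1 on the opposite strand, which had 8841 reads over the 8 libraries.

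Its paralogue Srebf2, the regulator of cholesterol synthesis, averaged 88.8 ± 12.5 CPM in b-gal+, 113 ± 7.32 CPM in b-gal-, 207 ± 37.3 CPM in EpCAM-positive cells and 171 ± 18.1 CPM in hepatocytes (SD, n = 2 each). Reads of Srebf1 per read of Srebf2 were 1.30 and 1.34 in the b-gal+ pair, 0.824 and 0.738 in the b-gal- pair, 0.419 and 1.15 in the EpCAM-positive pair, and 5.63 and 7.55 in the hepatocyte pair. The EpCAM-positive range spanned that of b-gal- cells, and no other ranges overlapped. Of 10 genes of SREBP processing and SREBP2, limma called 1 higher and 1 lower in b-gal+ than in b-gal- cells, with a median of -0.09, beside 23.3% of all genes called. These were Scap, the escort of SREBPs to the Golgi (72.9 ± 7.02 CPM for b-gal+ and 45.1 ± 1.78 CPM for b-gal- cells), and Insig2, which retains SREBPs in the endoplasmic reticulum (27.4 ± 0.855 and 52.7 ± 3.82 CPM). Against hepatocytes all 10 were called, beside 59.2% of all genes, 8 of them lower in b-gal+ cells, such as Sqle of cholesterol synthesis (7.69 ± 0.0673 CPM in b-gal+ cells and 278 ± 10.4 CPM in hepatocytes).

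Lpcat3 encodes the enzyme that puts polyunsaturated fatty acids into membrane phospholipids. It had 68.2 and 45.9 CPM in the b-gal+ pair, 48.4 and 36.6 CPM in the b-gal- pair, 34.9 and 43.6 CPM in the EpCAM-positive pair and 151 and 192 CPM in the hepatocyte pair. Hepatocytes stood above all other libraries, and the b-gal- pair overlapped both the b-gal+ and the EpCAM-positive pair. The b-gal+ cells were lower than hepatocytes at a log2 difference of -1.60 ± 0.25 (SE; limma, adjusted p = 0.00152), but at -0.55 and not called without TMM (adjusted p = 0.121). At -2.00 and -2.11, b-gal- and EpCAM-positive cells were lower than hepatocytes too (limma, adjusted p = 0.000480 and 0.000443). Between b-gal+ and b-gal- cells the difference was 0.41 with an interval of -0.20 to 1.01 (adjusted p = 0.314). Between b-gal- and EpCAM-positive cells it was 0.11 (adjusted p = 0.833), and -0.090 without b-gal- replicate 1 and -0.051 without EpCAM-positive replicate 1. Lpcat3 overlaps Emg1 on the opposite strand, which had 6089 reads over the 8 libraries. Of 5 other lysophospholipid acyltransferases tested, 1 was higher in b-gal+ than in b-gal- cells by limma and 0 lower (median 0.66; 23.3% of all genes were called), namely Lpcat2, at 159 ± 10.1 CPM for b-gal+ and 34.5 ± 20.1 CPM for b-gal- cells. In hepatocytes Lpcat2 had 1.65 ± 0.0367 CPM, its lowest level, where Lpcat3 was highest (SD, n = 2 each).

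Mylip encodes IDOL, a ubiquitin ligase through which LXR limits lipoprotein uptake, and was the only one of the 9 genes lower in b-gal+ than in b-gal- cells by limma. It stood at 194 and 193 CPM in the b-gal+ pair, 351 and 459 CPM in the b-gal- pair, 176 and 158 CPM in the EpCAM-positive pair and 12.4 and 21.6 CPM in the hepatocyte pair. The b-gal- libraries were highest and hepatocytes lowest, with no overlap between any groups. On the log2 scale the difference of b-gal+ over b-gal- cells was -1.05 ± 0.27 (SE; limma, adjusted p = 0.0311). Leaving out any one of these 4 libraries ended the call, at adjusted p = 0.121 and 0.150 for b-gal+ replicates 1 and 2 and 0.0559 and 0.188 for b-gal- replicates 1 and 2. Each of the 3 other groups exceeded hepatocytes, b-gal+ cells 11.5-fold, b-gal- cells 23.8-fold and EpCAM-positive cells 9.89-fold (limma, adjusted p = 4.96e-05, 1.80e-05 and 7.97e-05), called with any one library left out. The difference of b-gal+ over EpCAM-positive cells was 0.21 (adjusted p = 0.589) and turned to -0.11 without TMM. The endothelial marker sum, 20553 and 24289 CPM in b-gal- cells, was also highest in that group; its part in the Mylip level was not tested.

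Other LXR target genes were read from a list of 21, of which 20 were tested. In b-gal+ over b-gal- cells limma called 6 higher and 1 lower, with a median of 0.35, beside 23.3% of all genes called. Lpl, which releases fatty acids from lipoproteins, had 914 ± 100 CPM for b-gal+ and 146 ± 125 CPM for b-gal- cells. Scd1, the stearoyl-CoA desaturase, had 146 ± 24.8 and 23.5 ± 3.31 CPM, and Cd5l, a secreted macrophage protein, 7761 ± 2119 and 542 ± 157 CPM in these groups. Fads2, the fatty acid desaturase of the polyunsaturated pathway, was the lower one, at 3.85 ± 1.07 CPM for b-gal+ and 24.8 ± 0.308 CPM for b-gal- cells. Against hepatocytes all 20 were called, 6 higher and 14 lower, with a median of -3.89, beside 59.2% of all genes called. The lower ones included Apoc4, given above, and Cyp7a1, the rate-limiting enzyme of bile acid synthesis, at 0.266 ± 0.250 CPM in b-gal+ cells and 235 ± 60.4 CPM in hepatocytes (SD, n = 2 throughout).

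Genes that bring cholesterol to the transporters were listed as uptake, lysosomal release and storage, 16 in all. In b-gal+ over b-gal- cells 8 were higher and 1 lower by limma, with a median of 0.79, beside 23.3% of all genes called. Soat1, which esterifies cholesterol for storage, had 515 ± 12.8 CPM for b-gal+ and 124 ± 41.8 CPM for b-gal- cells, and Nceh1, which releases it again, 221 ± 2.31 and 51.0 ± 9.89 CPM. Lrp1, a receptor for lipoproteins that carry apolipoprotein E, had 3859 ± 768 CPM for b-gal+ and 810 ± 501 CPM for b-gal- cells. The lower gene was Cd36, a scavenger receptor that endothelium expresses too, at 299 ± 44.2 CPM for b-gal+ and 1093 ± 171 CPM for b-gal- cells. Over EpCAM-positive cells 10 were higher and 2 lower, and over hepatocytes 7 and 4, where 32.5% and 59.2% of all genes were called. Of 10 genes of oxysterol enzymes and HDL partners, 1 was higher and 2 were lower in b-gal+ than in b-gal- cells by limma (median 0.45; 23.3% of all genes were called). Cyp27a1, which makes an oxysterol ligand of LXR, was the higher one (140 ± 51.1 CPM for b-gal+ and 49.9 ± 2.90 CPM for b-gal- cells), and Abca7, a transporter related to Abca1, was lower (83.0 ± 8.29 and 172 ± 36.3 CPM). So was Ch25h, which makes 25-hydroxycholesterol, another oxysterol, at 0.581 ± 0.253 CPM for b-gal+ and 2.54 ± 0.480 CPM for b-gal- cells (log2 difference -1.50, adjusted p = 0.0420), a call that neither edgeR's quasi-likelihood test nor DESeq2 made. Apoa1, the acceptor of the cholesterol that ABCA1 exports, had 14.2 ± 3.58 CPM in b-gal+ cells and 6473 ± 325 CPM in hepatocytes (SD, n = 2 throughout).

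Among 20 calls of genes other than the 9 that are given by name for b-gal+ over b-gal- cells, 4 were made with any one library left out: Nr1h3, Rxra, Fads2 and Nceh1. The other 16 were lost without 1 or more libraries, Cd5l and Ch25h without 6 of them each and Rxrg with the second library of either group left out, with a highest adjusted p per gene of 0.0591 to 0.218 (limma).

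**Figure D5:**
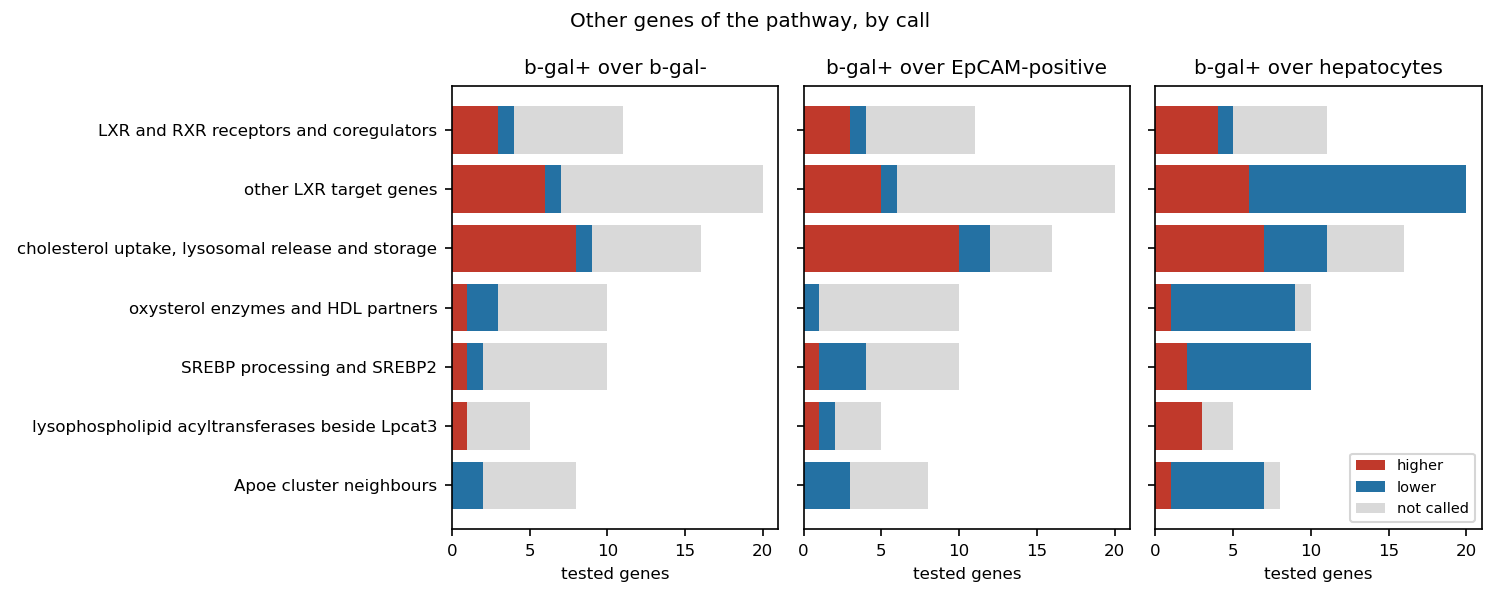
Number of tested genes of each list that were higher, lower or not called (limma, adjusted p under 0.05) in b-gal+ cells over each other group. Of the 16 uptake, release and storage genes 8 were higher in b-gal+ than in b-gal- cells, and of the 20 other LXR targets 14 were lower in b-gal+ cells than in hepatocytes.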

How the data were processed

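The submitters' processing notes name HTSeq and GRCm38.p4 (mm10); aligner, annotation, strand setting and scaling step are not given in the sources used here. For hepatocyte replicate 1 the authors deposited plain counts. In the other 7 libraries the deposited values have another unit, reads that the authors multiplied by 1 factor per library, up to 1.54. Dividing by the smallest step gave whole reads for 100% of values, within 0.01 reads. In each library 14 rows named by a date (0.0514% to 0.182% of reads) were left out. At this depth 3 reads are 0.122 to 0.177 CPM before TMM, a limit that covers counting error only.

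Reads were scaled with TMM (edgeR 4.0.16; factors 0.527 to 1.49), filtered with the default filter of edgeR, and tested with limma 3.58.1 with a trend, two-sided, on log2(CPM + 0.5), with all 8 libraries in 1 fit and 4 residual degrees of freedom. P-values were adjusted over all 14404 genes tested. A count model is an alternative because 7 of the 8 files are not plain counts; edgeR's quasi-likelihood test and DESeq2 1.42.0 were run on the recovered reads. Fold changes are on the log2(CPM + 0.5) scale, which understates changes of low genes. Alternatives were other scalings, filters, pseudocounts, fits of 2 groups, a replicate block and leaving out each library. The test was checked on simulated data. The 9 genes and all gene lists were chosen with earlier results of these data known. Named are the 9 genes, their paralogues, the neighbours of Apoe, and up to 4 called genes per list with the largest differences in b-gal+ over b-gal- cells and up to 2 in other comparisons (mean of at least 10 CPM); Rxrg, Ch25h, the Ncoa genes and the genes set beside others by role were named after their values were seen. Single cell type markers set beside a marker sum were also named after their values were seen. Positions and exon lengths are from GENCODE M21 and promoters from RefSeq GRCm38.p6. Abcg1 and Apoc1 promoters and all proteins were not used here. Some listed genes are not reported here by name.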

Additional observations from a re-analysis of the deposited data

How the results depend on the processing

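Over the 9 genes and 6 comparisons, 580 of the differences recomputed under other settings kept their direction and side of the threshold, 24 passed it newly, 14 no longer passed it and 3 turned round; with 1 library left out these counts were 387, 9, 32 and 4. A count model moved some counts of the 9 genes: DESeq2 called 7 for b-gal+ over b-gal- cells, and 3 for b-gal- over EpCAM-positive cells with 2855 of all genes. Fitting only the 2 groups compared gave 2167 genes and 3 of the 9 for b-gal+ over EpCAM-positive cells, and 0 genes and 0 of the 9 for b-gal- over EpCAM-positive cells, where 3318 genes and 2 of the 9 had an unadjusted p under 0.05 in limma; DESeq2 called 2855 genes there. Without TMM, on the deposited values, 0 of the 9 were called in that last comparison (4 at an unadjusted p under 0.05; DESeq2 called 3). That scaling moved the median difference of all genes by -0.13, -0.30, 0.77, -0.15, 0.96 and 1.17 in the 6 comparisons in the order b-gal+ over b-gal-, EpCAM-positive and hepatocytes, b-gal- over EpCAM-positive and hepatocytes, and EpCAM-positive over hepatocytes. The share of higher among called genes was then 32.5%, 25.6%, 76.7%, 25.5%, 79.7% and 84.9%, in place of 44.4%, 45.1%, 49.9%, 46.2%, 53.0% and 53.5%. Differences that turned round under it were Mylip in b-gal+ over EpCAM-positive cells (-0.11), Apoe in b-gal+ over hepatocytes (0.26), Lpcat3 in b-gal- over EpCAM-positive cells (-0.056) and Srebf2 in b-gal+ and in b-gal- over hepatocytes (0.10 and 0.61). With 1 library left out, both signs occurred for Srebf1 in b-gal+ over EpCAM-positive cells (-0.83 to 0.25), Lpcat3 in b-gal- over EpCAM-positive cells (-0.090 to 0.31) and Pltp in EpCAM-positive cells over hepatocytes (-0.14 to 1.41). The cause was not tested.

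With 1 library left out, genes called ranged over 1320 to 4390 for b-gal+ over b-gal-, 1972 to 5483 over EpCAM-positive and 6868 to 9167 over hepatocytes, 0 to 2810 and 7335 to 9870 for b-gal- over EpCAM-positive and hepatocytes, and 7128 to 8913 for EpCAM-positive over hepatocytes. The 0 came without b-gal- replicate 2, where 2678 genes had an unadjusted p under 0.05 in limma and DESeq2 with all libraries called 2855. Of the 9 genes, 1 to 5, 4 to 5, 7 to 7, 0 to 6, 5 to 8 and 6 to 7 were called in the same order. Where a group keeps 1 library, that library is assumed to vary like the other groups. Libraries of different groups share replicate numbers only: their deviations correlated across genes at 0.177 to 0.494 over the 6 pairs of groups. With the replicate number as a block, 4061 genes and 4 of the 9 were called for b-gal+ over b-gal- cells, and 9 of the 9 for b-gal- cells over hepatocytes, where Apoe passed (adjusted p = 0.0345, limma); Nr1h3 passed in b-gal+ cells over hepatocytes (0.0190). The 9 genes were all well above 3 reads, the lowest value being 9.75 CPM. The fits with no trend and with no EpCAM-positive libraries were added after seeing the data.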

Other observations

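For each of the 9 genes the genes most like it in pattern were taken as those with the smallest root mean square difference of log2(CPM + 0.5) over the 8 libraries, each gene centred on its mean, with predicted genes and the 9 themselves left out. Abca1 was followed most closely by Lipa, the lysosomal acid lipase that frees cholesterol from its esters, at a distance of 0.238; Lipa averaged 1045 CPM for b-gal+ cells, 297 for b-gal- cells, 142 for EpCAM-positive cells and 748 for hepatocytes. Abcg1 was followed by Itpripl2 (0.122), Zeb2 (0.147) and Fam78a (0.153), and Mylip by Myo7a (0.127), Kitl, which encodes stem cell factor (0.192), and Sipa1 (0.197). Nr1h2 lay nearest to Ccdc97 (0.0729), Lpcat3 to Rnd1 (0.137), Srebf1 to Pdp2, a pyruvate dehydrogenase phosphatase (0.247), and Apoe to Hnmt, the histamine methyltransferase (0.355).

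Pltp and Apoc1 had no gene as near. Pltp was nearest to Syn1 (0.371), Abca9 (0.379) and P2ry12, a purinergic receptor known from microglia (0.388); P2ry12 averaged 135 CPM for b-gal+ cells, 15.1 for b-gal- cells, 3.74 for EpCAM-positive cells and 1.57 for hepatocytes. Apoc1 was nearest to Abcb4, the phosphatidylcholine exporter of bile (0.565), which averaged 40.2 CPM for b-gal+ cells, 3.59 for b-gal- cells, 3.04 for EpCAM-positive cells and 535 for hepatocytes. Among the 9, Lpcat3 and Srebf1 (0.717) and Abca1 and Apoe (0.734) were nearest to each other, then Abcg1 and Mylip (0.902). These distances are a description over 8 libraries that share groups, with no test.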
